A study of Mus musculus with 21 samples.

Results

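The 45 genes described here encode the receptors for the brain's main fast inhibitory and excitatory transmitters. They were all RefSeq protein-coding genes whose symbol starts with Gabr or Gabbr (21 GABA receptor genes) or is Gria, Grik, Grin or Grm followed by a digit (24 glutamate receptor genes), of 20953 protein-coding genes with a curated transcript on chromosomes 1 to 19 and X. The study asked where subunits of NuRD sit in the embryonic ventral forebrain of CD1 mice, and where chromatin opens or closes when the homeodomain factors DLX1 and DLX2 are absent. Its 21 samples were taken from tissue labelled basal ganglia, which the study's design places in the ganglionic eminences. Chromatin immunoprecipitation (ChIP) at embryonic age E13.5 had 1 library for each of CHD4, HDAC1, HDAC2, MBD3, RBBP4 and RBBP7, and 3 inputs, in embryos for which no mutation is labelled. Accessibility (ATAC) at E12.5 covered Dlx1/2 KO FTneg, Dlx1/2 KO FTpos, WT FTneg and WT FTpos cells, with 3 embryos each. FTpos cells are those of the ventricular zone and FTneg cells those of the subventricular and mantle zones; what FT stands for is not given in the sources used here.

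GABA-A receptors are chloride channels built from alpha, beta, gamma and rarer subunits, among them the rho subunits of the retina, and GABA-B receptors are G-protein-coupled dimers. Glutamate acts on AMPA, kainate and NMDA receptor channels and on the metabotropic receptors, which couple to G proteins. NuRD joins an ATP-dependent remodeller (CHD4) to histone deacetylases (HDAC1, HDAC2), a methyl-CpG-binding family protein (MBD3) and histone-binding proteins (RBBP4, RBBP7), and it is known for turning genes and enhancers down during differentiation. DLX1 and DLX2 direct the fate of the GABAergic neurons that arise in the ganglionic eminences, and many receptor genes gain their full expression only as such neurons mature.

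Each ChIP target gave 1 list of peaks, and each accessibility list combined the embryos of a genotype and fraction against the other genotype, so no value below has a replicate and no test was run between gene classes. The depth behind the lists is unknown. Lists held 5517 to 29762 peaks, and a peak's fold enrichment is the value of the authors' caller for ChIP over input at its summit. Of the 6 lists, 3 bear a name that differs from their sample: a list named CHD4 belongs to the HDAC2 sample, a list named HDAC2 to the HDAC1 sample, and a list named HDAC1 to the CHD4 sample. They are called here by the label of their sample, and which name is right was not tested. CHD4 and MBD3 share an input library, as do HDAC1 and HDAC2, and RBBP4 and RBBP7. As a check of the tissue, a peak of at least 1 list lay at the ends of 10 of 10 defining genes of the GABAergic lineage, 8 of 8 of the ventricular zone and 8 of 8 of cortical glutamatergic cells, against 0 of 4 for microglia, 0 of 4 for endothelium and 57.3% of all genes. Markers of both neuronal lineages had peaks alike, so the peaks do not set the ganglionic eminences apart from cortex. In tissue of mixed cells, a peak carried by few cells and a weak peak carried by many cannot be told apart. Wilson 95% intervals below cover counting error over genes only, and neighbouring genes that share an end are not independent.

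Promoter windows of 6 members show the range seen over these genes, since the presence of a peak went with their content of CpG dinucleotides. Each window runs from 250 bases before to 50 bases after a RefSeq start (GRCm38.p6, the assembly of mm10), and capitals mark every CG. Grik3 (chr4:125490446-125490745, plus strand) encodes a kainate receptor subunit and had peaks of all 6 lists over the window. Grik2 (chr10:49788705-49789004, minus strand), another kainate subunit, had 4 lists. Gabrb2 (chr11:42420190-42420489, plus strand) and Gabra2 (chr5:71095800-71096099, minus strand), subunits common in forebrain GABA-A receptors, had 5 and 2 lists over theirs. Gabra6 (chr11:42321023-42321322, minus strand), the subunit of cerebellar granule cells, and Gabra3 (chrX:72656758-72657057, minus strand) had none.
Grik3: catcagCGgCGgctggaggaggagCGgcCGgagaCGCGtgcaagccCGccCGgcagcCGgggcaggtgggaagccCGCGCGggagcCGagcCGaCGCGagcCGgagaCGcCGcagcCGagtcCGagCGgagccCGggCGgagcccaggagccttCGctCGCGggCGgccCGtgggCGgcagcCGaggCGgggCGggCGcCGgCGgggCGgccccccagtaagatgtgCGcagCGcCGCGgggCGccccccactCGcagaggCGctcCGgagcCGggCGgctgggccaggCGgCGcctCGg
Grik2: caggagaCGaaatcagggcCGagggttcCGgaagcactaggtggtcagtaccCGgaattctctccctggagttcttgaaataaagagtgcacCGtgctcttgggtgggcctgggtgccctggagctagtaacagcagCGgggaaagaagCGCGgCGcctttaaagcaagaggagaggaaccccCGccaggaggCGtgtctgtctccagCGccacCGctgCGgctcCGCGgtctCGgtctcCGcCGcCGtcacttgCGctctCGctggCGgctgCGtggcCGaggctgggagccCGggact
Gabrb2: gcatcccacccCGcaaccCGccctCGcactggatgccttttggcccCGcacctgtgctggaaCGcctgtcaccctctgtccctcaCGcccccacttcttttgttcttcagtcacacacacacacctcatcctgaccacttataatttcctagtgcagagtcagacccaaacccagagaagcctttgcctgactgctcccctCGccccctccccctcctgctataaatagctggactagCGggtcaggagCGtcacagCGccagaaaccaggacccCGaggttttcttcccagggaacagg
Gabra2: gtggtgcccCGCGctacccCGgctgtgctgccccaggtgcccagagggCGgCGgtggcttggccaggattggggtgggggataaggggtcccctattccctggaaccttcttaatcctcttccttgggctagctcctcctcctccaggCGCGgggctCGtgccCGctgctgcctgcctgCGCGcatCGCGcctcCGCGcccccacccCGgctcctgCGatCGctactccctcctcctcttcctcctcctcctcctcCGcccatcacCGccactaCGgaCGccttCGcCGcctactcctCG
Gabra6: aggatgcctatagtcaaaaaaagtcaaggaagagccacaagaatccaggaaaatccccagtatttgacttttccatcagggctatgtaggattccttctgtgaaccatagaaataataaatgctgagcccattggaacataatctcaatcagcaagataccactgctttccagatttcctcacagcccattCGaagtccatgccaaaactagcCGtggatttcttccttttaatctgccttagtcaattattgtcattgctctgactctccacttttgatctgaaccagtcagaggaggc
Gabra3: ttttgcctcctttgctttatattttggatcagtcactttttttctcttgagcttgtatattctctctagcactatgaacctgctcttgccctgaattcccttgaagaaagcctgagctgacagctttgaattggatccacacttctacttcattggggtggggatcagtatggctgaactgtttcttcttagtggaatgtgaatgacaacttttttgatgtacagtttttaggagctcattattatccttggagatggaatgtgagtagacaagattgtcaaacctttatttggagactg
The Grik3 window holds 50 CpG dinucleotides, Grik2 26, Gabra2 25, Gabrb2 11, Gabra6 2 and Gabra3 0. Gabrb2 thus carried more lists over its window than Gabra2 with fewer CpG dinucleotides.

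A peak of at least 1 list lay within 1 kb of an annotated end of 13 of 21 GABA receptor genes (61.9%, 95% interval 40.9 to 79.2) and of 22 of 24 glutamate receptor genes (91.7%, 74.2 to 97.7), against 57.3% of all genes. The GABA share was near that of all genes, and its interval overlaps that of the glutamate receptors. Both counts depended on the length of the lists: with each list cut to its 5517 strongest peaks they were 5 GABA and 12 glutamate receptor genes. With RefSeq starts in place of gene ends, a peak lay at 9 of the 17 GABA and 14 of the 15 glutamate receptor genes that have one. The matching share over all genes is not given here. RBBP4 was the most frequent list, with a peak at the ends of 12 GABA (57.1%) and 22 glutamate receptor genes (91.7%), against 47.9% of all genes. It was the only list at the ends of 2 GABA (9.52%) and 6 glutamate receptor genes (25%), against 5.57% of all genes. Without the RBBP4 list, 11 GABA and 16 glutamate receptor genes still had an end peak.

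The other lists were sparser at receptor ends. The CHD4-labelled list had a peak at 7 GABA receptor genes (33.3%) and 11 glutamate receptor genes (45.8%), against 45.7% of all genes. The HDAC1-labelled list was at 7 (33.3%) and 12 (50%), against 28% of all genes, and MBD3 at 9 (42.9%) and 8 (33.3%), against 23.8%. The HDAC2-labelled list was at 2 GABA receptor genes (9.52%) and 6 glutamate receptor genes (25%), against 10% of all genes, and RBBP7 at 1 (4.76%) and 4 (16.7%), against 12.51%. MBD3 was thus the 1 list of the 6 with a higher share at GABA than at glutamate receptors, by 1 gene in count. The intervals of the receptor classes overlapped for every list, and least for RBBP4, at 36.5 to 75.5 for GABA and 74.2 to 97.7 for glutamate receptors.

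**Figure D1:**
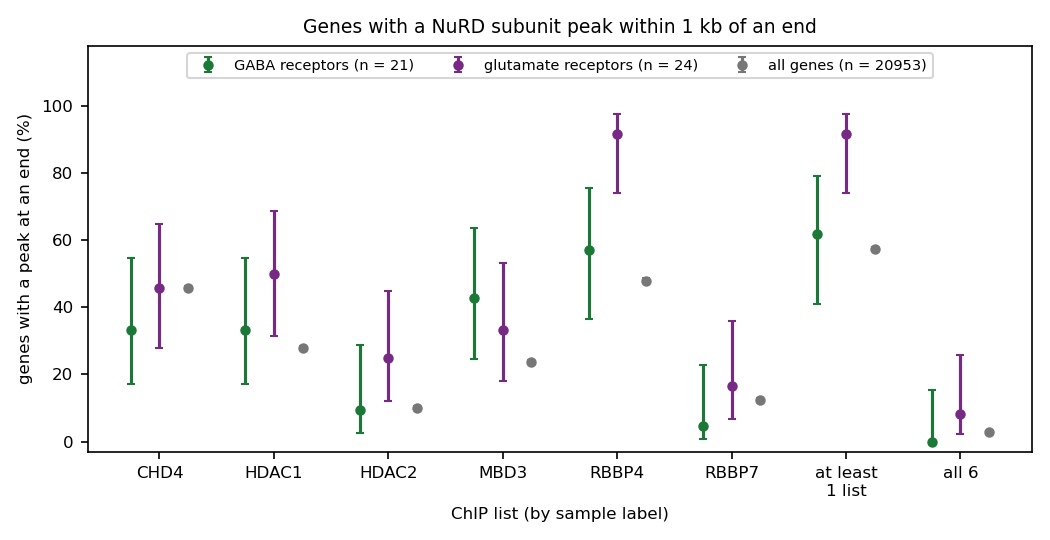
Share of genes (%) with a peak within 1 kb of an end, for each ChIP list by its sample label, for at least 1 list and for all 6, in GABA receptor genes (n = 21), glutamate receptor genes (n = 24) and all genes (n = 20953); points are shares and bars Wilson 95% intervals over genes. Glutamate receptors stand at 91.7% in the RBBP4 list, against 57.1% for GABA receptors and 47.9% for all genes.

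Receptor genes are long, and long genes carried end peaks more often. Among genes under 50 kb, 2 of 8 GABA and 5 of 6 glutamate receptor genes had an end peak, against 52.6% of all genes of that length. From 50 to 200 kb the counts were 6 of 7 and 4 of 4, against 72.2%, and above 200 kb they were 5 of 6 and 13 of 14, against 75.8%. The shortfall of GABA against glutamate receptors thus lay mostly among short genes, which for GABA are largely the rho and rare subunits.

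By family, the alpha subunits of the GABA-A receptor, which shape its affinity and drug sensitivity, had an end peak at 4 of 6 genes. The beta subunits, which contribute to the GABA-binding site, had one at 3 of 3 genes, with a median of 4 lists. The gamma subunits, which help anchor the receptor at synapses, had one at 3 of 3 genes, with a median of 1 list. Of the rarer delta, epsilon, pi and theta subunits, 1 of 4 (Gabrd) had an end peak, and of the rho subunits 0 of 3. Both GABA-B subunit genes, Gabbr1 and Gabbr2, had end peaks, of 5 and 3 lists.

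The glutamate families were covered more evenly. End peaks lay at 4 of 4 AMPA receptor genes, which carry most fast excitatory transmission, with a median of 1.5 lists. They lay at 4 of 5 kainate receptor genes, with a median of 3 lists, and at 6 of 7 NMDA receptor genes, whose calcium-permeable channels need glutamate and a co-agonist, also with a median of 3. All 8 metabotropic receptor genes had one, with a median of 2 lists. The 10 members with no peak of any list at an end were Gabrp, Gabra6, Gabrr1, Gabrr2, Gabrr3, Gabre, Gabra3 and Gabrq among GABA receptors and Grik2 and Grin3b among glutamate receptors. Of the 4 members on X, 1 (Gria3, RBBP4 alone) had an end peak, against 33.7% of all genes on X and 58.4% of those on autosomes.

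**Figure D2:**
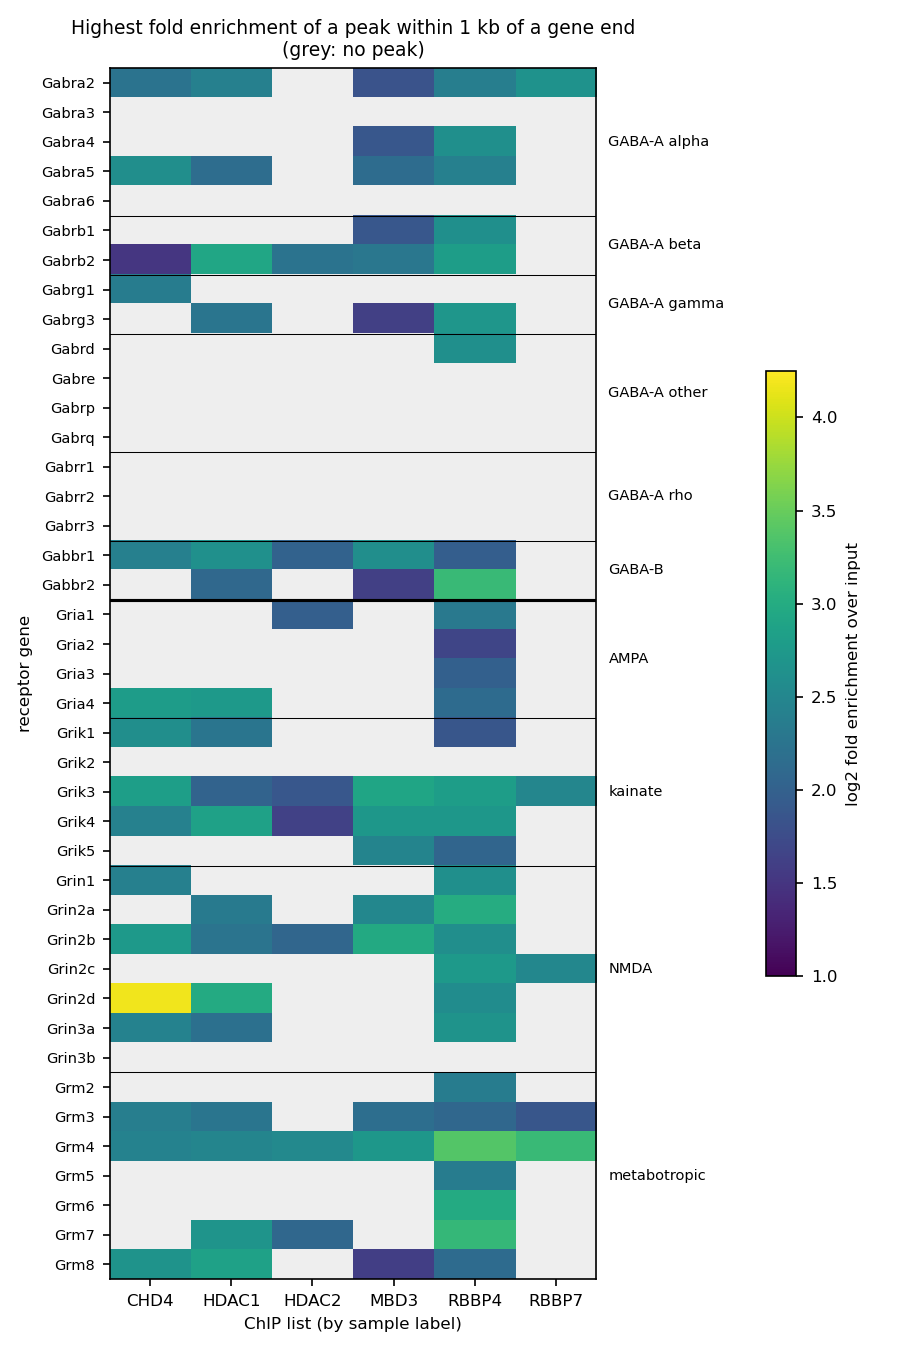
Highest fold enrichment (log2, colour) of a peak within 1 kb of an end of 41 of the 45 receptor genes (rows, by family, GABA receptors above the thick line) in each ChIP list (columns, by sample label); grey means no peak. The RBBP4 column is filled at 30 of these genes, and the rho family and 3 of the 4 rarer GABA-A subunits are empty in every column.

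Peaks of all 6 lists lay at the ends of 0 GABA and 2 glutamate receptor genes (8.33%), Grik3 and Grm4, against 3% of all genes. Peaks of at least 5 lists lay at the ends of 3 GABA (14.3%) and 5 glutamate receptor genes (20.8%), against 9.88% of all genes. With a list left out, the genes with every remaining list numbered 4 without the HDAC2-labelled list and 6 without RBBP7. With peaks of −log10 q of at least 10 only, or with every list cut to the same number of peaks, no receptor gene had all 6 lists. At Grik3 (chr4:125490259-125714173) the highest fold enrichment at an end was 7.08 in the CHD4-labelled list, 4.10 in the HDAC1-labelled list, 3.69 in the HDAC2-labelled list, 7.51 for MBD3, 7.01 for RBBP4 and 5.60 for RBBP7. These peaks merged into a single site over its start (chr4:125488938-125492156), and each of the 6 lists had a peak over the promoter window printed above. In the HDAC1-labelled and RBBP7 lists the peak over that window was a weaker one, at 3.83 and 4.85.

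Grm4 (chr17:27422387-27513826), a presynaptic metabotropic receptor, carried its lists at both ends. At the lower-coordinate end, a site of 5 lists (chr17:27422384-27423481) had fold enrichments of 10.4 for RBBP4, 9.18 for RBBP7, 6.60 for MBD3, 5.78 in the HDAC2-labelled list and 4.77 in the CHD4-labelled list. The HDAC1-labelled list was at the opposite end, at 5.60, beside CHD4-labelled (5.42), MBD3 (5.07) and RBBP4 (6.16) peaks. No single site at Grm4 therefore held 6 lists, unlike at Grik3.

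Among GABA receptor genes the most lists at an end were 5, at Gabrb2, Gabra2 and Gabbr1. At Gabrb2 (chr11:42419515-42632591) the fold enrichment was 2.86 in the CHD4-labelled list, 7.56 in the HDAC1-labelled list, 4.72 in the HDAC2-labelled list, 4.89 for MBD3 and 6.98 for RBBP4, with no RBBP7 peak. At Gabra2 (chr5:70958392-71095849) it was 4.70 in the CHD4-labelled list, 5.32 in the HDAC1-labelled list, 3.55 for MBD3, 5.26 for RBBP4 and 6.29 for RBBP7, with none in the HDAC2-labelled list. Gabra2 was the only GABA receptor gene with an RBBP7 peak at an end. Gabbr1 (chr17:37045966-37074305), the GABA-binding subunit of the GABA-B receptor, had 5.34 in the CHD4-labelled list, 6.21 in the HDAC1-labelled list, 4.07 in the HDAC2-labelled list, 6.08 for MBD3 and 3.92 for RBBP4. In all 3 genes the lists merged into a single site that lay within 1 kb of a RefSeq start, but only at Gabbr1 did all 5 overlap one another. At Gabrb2 the HDAC2-labelled peak reached neither the CHD4-labelled nor the HDAC1-labelled peak. At Gabra2 the CHD4-labelled peak reached neither the MBD3 nor the RBBP7 peak. In both genes a wider RBBP4 peak joined them.

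Grin2b (chr6:135713221-136173615), the NMDA subunit that predominates before birth, also had 5 lists at an end. Its fold enrichments were 6.72 in the CHD4-labelled list, 4.76 in the HDAC1-labelled list, 4.20 in the HDAC2-labelled list, 7.89 for MBD3 and 6.10 for RBBP4. Like Gabrb2 and Gabbr1, it lacked an RBBP7 peak there. Over the end peaks of each class, median fold enrichments were 5.26 for GABA and 4.98 for glutamate receptors in the RBBP4 list, against 4.88 over all gene ends, and 4.70 and 5.55 in the CHD4-labelled list, against 6.29. In the HDAC1-labelled list they were 4.48 and 4.93, against 5.23, and for MBD3 3.68 and 5.50, against 4.56. In the HDAC2-labelled list they were 4.39 and 3.94, against 4.13. RBBP7 had 1 GABA end peak, at 6.29, and a glutamate median of 5.60, against 5.52. Medians of the CHD4-labelled and HDAC1-labelled lists were thus below those of all gene ends in both classes, and for MBD3 the GABA median was below and the glutamate median above.

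Inside the genes, away from the 1 kb windows at their ends, at least 1 peak lay in 9 of 21 GABA (42.9%) and 19 of 24 glutamate receptor genes (79.2%), against 25.7% of all genes. Among genes over 200 kb the counts were 5 of 6 GABA (83.3%) and 13 of 14 glutamate receptor genes (92.9%), against 89.4% of all genes of that length, so long receptor genes had interior peaks about as often as other long genes. There were 44 such interior peaks in GABA receptor genes, or 1.46 per 100 kb, and 175 in glutamate receptor genes, or 2.46 per 100 kb, against 3.08 per 100 kb over all genes. Both classes were thus below the pooled density of all genes, but the median gene gave another order. Among genes over 50 kb the median density was 0.846 per 100 kb for GABA and 2.16 for glutamate receptor genes, against 1.23 for all such genes. These groups were not matched for length: their median lengths were 183, 387 and 99 kb. Pooled over the same genes, the densities were 1.44 and 2.47, against 3.03 per 100 kb. Whether length accounts for the higher glutamate median was not tested. Over genes of every length the medians were 0 and 1.31, against 0. RBBP4 and RBBP7 supplied 21 and 11 of the GABA peaks and 60 and 37 of the glutamate peaks. Without the RBBP4 list, 23 GABA and 115 glutamate interior peaks were left.

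The kainate receptor genes set the glutamate value. Their 5 genes held 106 interior peaks, or 5.90 per 100 kb, and the other 19 glutamate receptor genes held 69, or 1.30 per 100 kb, close to the GABA density. Metabotropic receptor genes were at 1.40, NMDA receptor genes at 1.30 and AMPA receptor genes at 1.01 per 100 kb. On the GABA side the values were 3.68 for the GABA-B genes, 2.18 for alpha, 1.39 for beta and 0.354 for gamma subunits, and the rho and rarer subunits had no interior peak. Part of this lies just outside the 1 kb windows, so peaks over 10 kb from the gene's own ends and RefSeq starts were also counted. Their density was 0.922 per 100 kb in GABA receptor genes and 4.52 in kainate receptor genes. It was 0.923 in the other glutamate receptor genes, against 2.42 over all genes. Ends and starts of other genes were not excluded. For 13 members no RefSeq start was available, so only their ends were used. The pooled kainate density thus stayed above that of all genes, through Grik3 (10.3 per 100 kb), Grik4 (4.68) and Grik2 (4.15), which held 21, 19 and 28 of the 77 peaks. Grik1, with 9 peaks or 2.40 per 100 kb, stood near all genes, and Grik5 had 0. Outside the kainate genes the pooled values were below that of all genes, but single genes were above it, 1 of 21 GABA and 3 of the 19 other glutamate receptor genes. These were Gabra2 (4.26), Grm4 (8.40), Grm3 (3.63) and Grin1, the last with 1 peak in 8.01 kb.

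**Figure D3:**
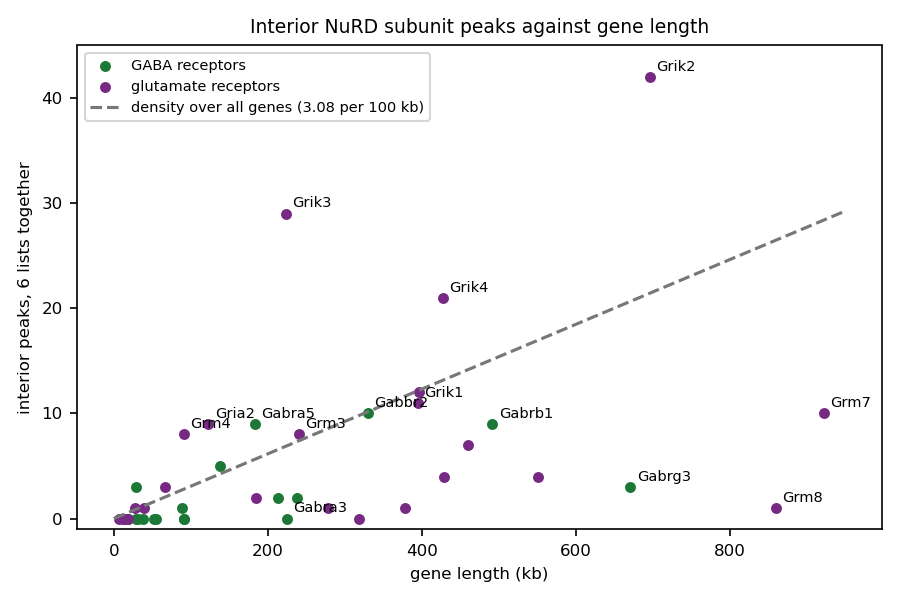
Interior peaks of the 6 lists together (vertical axis) against gene length in kb for each receptor gene, GABA in green and glutamate in purple; the dashed line is the density over all genes, 3.08 per 100 kb. Grik2 (42 peaks), Grik3 (29) and Grik4 (21) lie above the line, and most long receptor genes lie below it.

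Kainate receptors are glutamate-gated channels that also tune transmitter release. Grik3 had 29 interior peaks, 13.1 per 100 kb, the highest density of any member. Grik2 (chr10:49093680-49790161) had 42, or 6.05 per 100 kb, of which 10 were in the CHD4-labelled list, 7 in the HDAC1-labelled list, 3 in the HDAC2-labelled list, 6 of MBD3, 8 of RBBP4 and 8 of RBBP7. Over 10 kb from the gene's own ends and starts, 21 of the Grik3 peaks and 28 of the Grik2 peaks remained. Grik4 (chr9:42518182-42945000), named here because of the sites described next, had 21.

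Merged across lists, the peaks at receptor genes formed 36 sites at GABA and 115 at glutamate receptor genes. None of the GABA sites and 5 of the glutamate sites (4.35%) held all 6 lists, against 3.93% of the 38820 sites genome-wide. All 5 lay in kainate receptor genes, 3 in Grik3 and 1 each in Grik2 and Grik4. Inside Grik3, the site at chr4:125534248-125535878 had fold enrichments of 11.2 in the CHD4-labelled list, 7.95 in the HDAC1-labelled list, 2.77 in the HDAC2-labelled list, 5.23 for MBD3, 11.7 for RBBP4 and 6.79 for RBBP7. The HDAC2-labelled peak there (chr4:125534248-125534579) lay at the edge of the site and joined the others through a weaker RBBP4 peak of 3.78. The second site, at chr4:125544742-125546034, had 4.94 in the CHD4-labelled list, 4.87 in the HDAC1-labelled list, 3.70 in the HDAC2-labelled list, 4.94 for MBD3, 10.9 for RBBP4 and 7.01 for RBBP7. Since the lists differ in scale, with median fold enrichments from 4.21 to 6.20, each value was also placed within its own list. By this measure too RBBP4 stood highest at both interior sites, at or above 99% and 98.4% of its list, and the HDAC2-labelled peaks lowest, at 1.92% and 26%.

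The site of 6 lists in Grik2 (chr10:49255440-49258753) had fold enrichments of 8.80 for RBBP7, 6.35 in the CHD4-labelled list and 6.28 for RBBP4, at or above 84.7%, 61.8% and 78.4% of their lists. The highest MBD3 peak there was at 5.50 (73.4%) and the HDAC1-labelled peak at 5.04 (47.7%). The HDAC2-labelled peak, at 3.01, was at or above only 4.88% of its list. The HDAC1-labelled and HDAC2-labelled peaks did not overlap each other and joined through other lists. The site in Grik4 (chr9:42896818-42898269) had 7.07 for MBD3, 7.44 for RBBP4 and 7.11 for RBBP7, at or above 90.4%, 88.9% and 67.5% of theirs. Its other lists were weaker, at 4.77 in the CHD4-labelled list (31.5%), 4.13 in the HDAC2-labelled list (46.2%) and 3.73 in the HDAC1-labelled list (5.7%). Grik2 also held a RBBP7 peak of 23.9 (chr10:49219558-49221380), at or above 99.9% of that list. Near its start, Grik2 had a site of 5 lists (chr10:49786449-49789043) with fold enrichments of 6.50 in the CHD4-labelled list, 5.60 in the HDAC1-labelled list, 3.12 in the HDAC2-labelled list, 3.11 for MBD3 and 4.90 for RBBP4. That site covers the RefSeq start printed above but lies more than 1 kb inside the annotated gene end, which is why Grik2 was counted without an end peak.

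Other members with dense interior peaks differed in where these lay. Gabbr1 had 3 interior peaks (11.4 per 100 kb), with fold enrichments of 3.98 in the HDAC1-labelled list and 4.52 and 4.97 for RBBP4. Gabra5 (chr7:57407669-57591016), the alpha subunit of extrasynaptic receptors in the hippocampus, had 9 (4.96 per 100 kb), with its highest at 8.94 for RBBP4 in a site of 5 lists (chr7:57509101-57510703) over a RefSeq start. Gabra2 had 5 (3.69 per 100 kb), with RBBP7 at 12.4 and RBBP4 at 8.14 in a site deep inside the gene. Grm4 had 8 (8.94 per 100 kb), with RBBP4 at 8.02. Gria2 (chr3:80681450-80804227), which makes AMPA receptors impermeable to calcium once edited, had 9 (7.45 per 100 kb), with its highest at 8.95 in the CHD4-labelled list. Over 10 kb from the gene's own ends and starts, 0 of the Gabbr1, 1 of the Gabra5 and 1 of the Gria2 peaks remained. For Gabra2 and Grm4 it was 5 and 6, though Grm4 had no RefSeq start to exclude.

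Sites with RBBP4, RBBP7 or both and none of the other lists made up 20 of 36 GABA sites (55.6%) and 62 of 115 glutamate sites (53.9%), against 43.7% of all sites. RBBP4 alone made up 36.1% of GABA and 32.2% of glutamate sites, against 23.6%. Sites of 1 list made up 50% and 53.9%, against 48.1%. All sites here are those genome-wide, also between genes, and they were not matched to the receptor sites for location. These higher shares are therefore not shown to be particular to receptor genes.

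GABA-A subunit genes lie in clusters, and these differed in their peaks. The cluster of Gabrg1, Gabra2, Gabra4 and Gabrb1 on chromosome 5 spans 1400 kb and held 28 peaks, or 2.0 per 100 kb, the highest of the 5 clusters, against 3.74 per 100 kb over the autosomes from the first to the last gene of each. The cluster of Gabre, Gabra3 and Gabrq on X held 0 over 586 kb, against 0.694 per 100 kb over X, and that of Gabrr2 and Gabrr1 on chromosome 4 held 0 over 106 kb. Some counts at ends are shared between neighbours: the end windows of Gabra4 and Gabrb1 hold the same MBD3 and RBBP4 peaks.

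The RefSeq promoter table held 39 windows for 32 of the 45 members, 21 for 17 GABA and 18 for 15 glutamate receptor genes. The 13 members not in it included Gria1, Grin2a, Grik1, Grm4, Grin3a, Gabrd, Grin2b, Grm5 and Gria3. CpG dinucleotides are dense in the promoters of most housekeeping and many developmental genes and sparse in many promoters of tissue-restricted genes. The median CpG count of a window was 9 in GABA and 16 in glutamate receptor genes, against 14 over 20418 windows of all genes. Windows with a peak over them had a median of 14 CpG dinucleotides in receptor genes (26 windows) and those without had 3 (13 windows), against 23 and 4 over all genes.

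Within classes of CpG content, receptor windows differed from all windows most in the middle class. Of receptor windows with fewer than 5 CpG dinucleotides, 1 of 10 held a peak, against 2.97% of all such windows. With 5 to 14 it was 12 of 13, against 39.5%, and with 15 or more it was 13 of 16, against 89.3%. The 12 of 13 comprised 7 of 8 GABA and 5 of 5 glutamate windows, some of them alternative starts of the same gene such as Gabrb2, so these windows are not independent. The 3 CpG-rich windows without a peak were those of Gabre, with 24 CpG dinucleotides, Gabrq, with 23, both on X, and Grin1, the obligatory NMDA subunit, with 33. At Grin1 a CHD4-labelled peak ended 25 bp and an RBBP4 peak 147 bp from the window, and both counted as end peaks, whereas the nearest peak of any list was 311950 bp from the Gabre window and 92645 bp from the Gabrq window. The letters TAATTA, the core that many homeodomain proteins including DLX factors recognise, were in 1 of 39 receptor windows (2.56%, Gabrg1), against 4.45% of all windows. The GC box letters GGGCGG, searched on both strands and not overlapping the first motif, were in 19 (48.7%), against 47.7%.

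**Figure D4:**
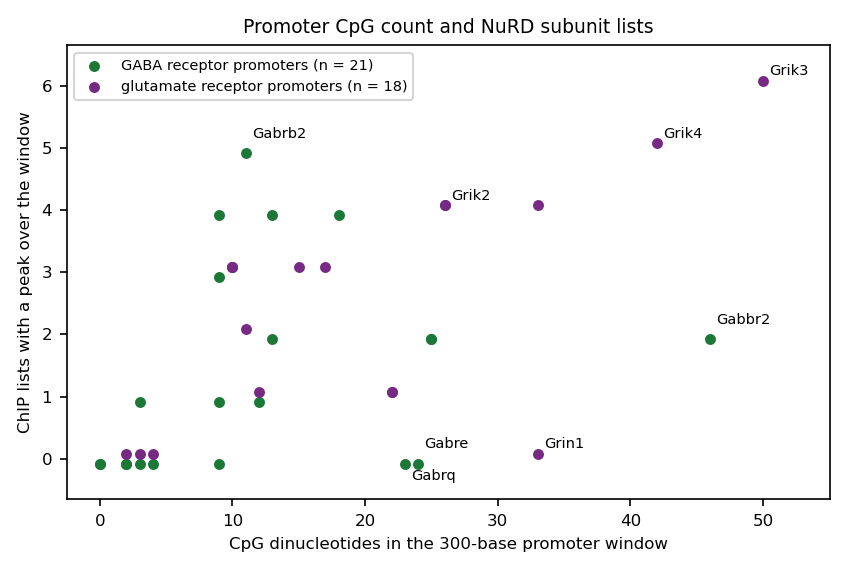
Number of ChIP lists with a peak over each receptor promoter window (vertical axis; points shifted slightly down for GABA and up for glutamate so that both can be seen) against CpG dinucleotides in its 300 bases, for 21 GABA windows (green) and 18 glutamate windows (purple). Windows with fewer than 5 CpG dinucleotides hold at most 1 list, and Grik3, with 50, holds all 6.

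Regions more accessible in KO than in WT FTneg cells lay in or within 100 kb of 0 GABA and 2 glutamate receptor genes (8.33%), Grik2 and Grik3, against 5.46% of all genes. Among genes over 200 kb the share was 2 of 14 glutamate receptor genes (14.3%), against 17.3% of all such genes, so for genes of this length the share was at or below the background. The list of regions higher in KO than in WT FTpos cells, that of regions higher in WT than in KO FTneg cells and that higher in WT than in KO FTpos cells had 0 regions near any member, against 0.21%, 0.31% and 0.205% of all genes. These lists held 12, 53 and 33 regions, against 727 in the KO-higher FTneg list.

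A pair of the KO-higher FTneg regions lay upstream of Grik3. The farther (chr4:125485061-125486382) was 3877 bp from the gene end with an area of 1484, the authors' score of −log10 p summed over the region, and ranked 51 of 727. The nearer (chr4:125486507-125487704) was 2555 bp away with an area of 847 and ranked 229. The farther overlapped an RBBP4 peak of 5.69, and the nearer overlapped a site of CHD4-labelled (5.23), MBD3 and RBBP4 peaks. The region in Grik2 (chr10:49131291-49131642) lay in the gene body with an area of 660, ranked 417, and overlapped an RBBP4 peak of 5.97. All 3 regions thus carried a NuRD subunit peak, as did 71.3% of the whole list. All 3 included RBBP4, the longest of the ChIP lists at 29762 peaks, and without that list 1 of the 3 carried a peak. The matching shares over the whole accessibility list are not given here, so RBBP4 is not shown to be particular to these regions. The median distance to the nearest KO-higher FTneg region was 1.12 Mb for GABA and 1.60 Mb for glutamate receptor genes, against 1.63 Mb over all genes. The nearest for any GABA receptor gene was 0.133 Mb, at Gabrr2.

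Genes whose products assemble with the receptors were counted in the same way. Of 9 genes on the GABA side (scaffolds, assembly factors and GABA-B auxiliary subunits), 6 had an end peak, and of 20 on the AMPA, kainate and NMDA side, 18 had one. The counts were 5 of 6 for the Homer and Shank scaffolds of metabotropic receptors and 5 of 7 for delta and glycine receptor genes, against the 57.3% of all genes. Each of these groups, of 9, 20, 6 and 7 genes, had 1 gene with all 6 ChIP lists at its ends, against 3% of all genes. These were Kctd12, a GABA-B auxiliary subunit with fold enrichments from 3.88 in the HDAC2-labelled list to 7.36 in the HDAC1-labelled list, Dlg2, a postsynaptic scaffold (4.05 in the HDAC2-labelled list to 7.73 for RBBP4), Homer3 (4.66 in the HDAC2-labelled list to 8.98 in the CHD4-labelled list) and Grid1, a delta receptor (3.34 for MBD3 to 7.45 in the HDAC2-labelled list). The associated genes with no end peak included Gphn, Kctd16, Cnih3, Dlg4, Shank3, Glra2 and Glra4. All of these but Glra2 and Glra4 held interior peaks, so they were not without peaks.

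A few associated genes lay near an accessibility region. A KO-higher FTneg region lay in or within 100 kb of 3 of the 20 genes on the AMPA, kainate and NMDA side, against 5.46% of all genes. A region higher in WT than in KO FTneg cells lay near 1 of the 6 on the metabotropic side, against 0.31%. Cacng4, an auxiliary AMPA receptor subunit, held a KO-higher FTneg region (chr11:107784248-107784694, area 575) that overlapped peaks of all 6 ChIP lists and also lay within 100 kb of Cacng5. Pick1, which binds AMPA receptors inside the cell, had one 26678 bp away (area 536), with 1 ChIP list. Homer2 had a region higher in WT than in KO FTneg cells 39014 bp away (area 532), also with 1 ChIP list.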

How the data were processed

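Peak and region lists were used as the authors deposited them; the submitters' processing notes name BWA, SAMtools 1.10, MACS2 2.2.7.1, Genrich, deepTools and the build mm10, without settings. In the ChIP lists the deposited fold enrichment is a ratio over input and the deposited −log10 q is the caller's. The deposited accessibility score is an area of −log10 p, with a minimum of 500 in the authors' lists. Direction was taken from the genotype each accessibility list is attached to.

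Overlap meant at least 1 bp. Gene ends and names came from RefSeq (GRCm38.p6), without strand for every gene, so both ends were used with a window of 1 kb. Interior peaks overlapped the gene body and not these windows. Sites are peaks of the 6 lists merged where they overlap. Counts were set beside the same counts over 20953 genes (of 21900 protein-coding). Overlap counting was tested on simulated intervals. Scripts used Python 3.11.15, pandas 2.3.3, NumPy 2.4.6, SciPy 1.17.1 and matplotlib 3.10.9.

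Members and lists were chosen with earlier results of these data known. Genes named with values were those with all 6 lists at their ends, the 3 GABA and 3 glutamate receptor genes with the most lists at ends (ties by fold enrichment), the 3 of each with most interior peaks per 100 kb, those with an accessibility region, and those without an end peak by name. Grik4, Gabbr2, Gabrd, Gria3, Grin1, Gabrg1 and the genes under other observations were named after their values were seen. Some genes and clusters are counted but not reported by name here.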

Additional observations from a re-analysis of the deposited data

How the results depend on the processing

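Of 83 comparisons of a result with an alternative setting, 61 stayed within 1.5 times the reported count and 22 moved further. Cutting every list to its 5517 strongest peaks gave an end peak at 5 GABA and 12 glutamate receptor genes, 0 genes with all 6 lists, and 9 GABA and 57 glutamate interior peaks. A minimum −log10 q of 10 gave 0 genes with all 6 lists and 13 GABA and 74 glutamate interior peaks. Without the RBBP4 list, interior peaks were 23 and 115, and 1 accessibility region overlapped a ChIP peak. Genes with every remaining list numbered 4 without the HDAC2-labelled list and 6 without RBBP7. With RefSeq starts alone, 9 of the 17 GABA and 14 of the 15 glutamate receptor genes that have one had a peak, and 1 gene had all 6 lists. KO-higher FTneg regions lay near 6 genes within 250 kb (6 regions with a ChIP peak), in 1 gene body (1 region), and near 1 gene at an area of at least 1000 (1 region). Further settings were chosen after seeing the data. A distance over 10 kb from a gene's own ends and starts left 24 GABA interior peaks. RefSeq starts added to gene ends gave 13 and 23 genes with an end peak. The MBD3, RBBP4 and RBBP7 lists alone gave 12 and 22. Why these counts moved was not tested. No paired analysis was possible because each ChIP target has 1 list and each accessibility list combines its embryos; for the same reason no replicate could be left out. Depth is unknown, so a missing peak is not shown to be an absence of binding.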

Other observations

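A few of the highest fold enrichments at receptor genes, singled out after their values were seen, fell outside the rule for named genes. At Grin2d, an NMDA subunit gene, the CHD4-labelled list reached 18.1 within 1 kb of an end (chr7:45830358-45831031), the highest value at any member's end, but the nearest gene end was that of Grwd1, 260 bp from the summit. Inside Grik1, a kainate subunit gene, an RBBP7 peak reached 14.6, with RBBP4 at 8.08 over the same place. Inside Grm3, a metabotropic receptor gene, an RBBP7 peak reached 14.2.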
